A study of Mus musculus with 6 samples.

Results

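The transcripts described here are those of 10 antigen presentation genes in thymocytes that lack Flvcr. They were the class I heavy chain genes H2-K1 and H2-D1, their light chain gene B2m and the peptide transporter genes Tap1 and Tap2. With them stood the class II chain genes H2-Aa, H2-Ab1 and H2-Eb1, the invariant chain gene Cd74, and the lipid-presenting molecule gene Cd1d1. Members were chosen by the gene symbol in the platform annotation, which gave 19 of the 45281 probes on the array and 10 of 20289 named genes. All 10 genes had at least 1 probe.

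The samples were CD4+CD8+ double-positive cells sorted by flow cytometry from thymuses of mice on a C57BL/6 background. Total RNA of 3 Flvcr+/+ samples (control) and 3 Flvcr-/- samples (Flvcr-deleted) was measured on Illumina bead arrays, with a single array for each sample. FLVCR is a heme exporter of the plasma membrane. The sources used here do not give the allele or any Cre line behind the deletion, the ages of the mice or the number of animals per sample. P-values therefore measure only the spread between these samples.

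MHC class I molecules consist of a heavy chain and beta 2-microglobulin, and are loaded in the endoplasmic reticulum with peptides that the TAP transporter brings in. MHC class II molecules are held by the invariant chain until an endosomal peptide replaces it, and are made mainly by dendritic cells, B cells, macrophages and thymic epithelium. CD1d presents lipids, and its display by double-positive thymocytes selects invariant natural killer T cells. In mice, double-positive thymocytes carry little surface class I, which increases as the cells mature, and mouse T cells in general make little class II.

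The upstream sequences of 4 members are shown because class I and class II genes share letters known as binding sites of the RFX, CREB and NF-Y factors, while the enhancer A element belongs to class I. They are RefSeq windows (GRCm38.p6) of 300 bases, from 250 before to 50 after the gene's start, 5′ to 3′ on the gene's strand. A window was found for 6 members. The sequence of H2-K1 is from chr17:34000284-34000583 (minus strand), that of H2-D1 from chr17:35262844-35263143 (plus strand), that of H2-Aa from chr17:34287774-34288073 (minus strand) and that of H2-Eb1 from chr17:34305617-34305916 (plus strand).
H2-K1: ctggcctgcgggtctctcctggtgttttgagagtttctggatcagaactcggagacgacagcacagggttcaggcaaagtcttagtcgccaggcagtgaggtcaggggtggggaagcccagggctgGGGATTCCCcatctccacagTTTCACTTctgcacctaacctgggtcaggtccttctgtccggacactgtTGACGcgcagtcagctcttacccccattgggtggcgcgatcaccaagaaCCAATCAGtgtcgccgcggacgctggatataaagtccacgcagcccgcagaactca
H2-D1: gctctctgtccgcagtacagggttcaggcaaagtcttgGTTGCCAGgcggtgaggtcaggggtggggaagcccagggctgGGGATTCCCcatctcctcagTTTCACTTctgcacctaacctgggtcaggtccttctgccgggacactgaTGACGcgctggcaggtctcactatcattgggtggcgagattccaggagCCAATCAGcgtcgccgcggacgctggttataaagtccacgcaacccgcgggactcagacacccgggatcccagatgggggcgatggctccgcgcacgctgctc
H2-Aa: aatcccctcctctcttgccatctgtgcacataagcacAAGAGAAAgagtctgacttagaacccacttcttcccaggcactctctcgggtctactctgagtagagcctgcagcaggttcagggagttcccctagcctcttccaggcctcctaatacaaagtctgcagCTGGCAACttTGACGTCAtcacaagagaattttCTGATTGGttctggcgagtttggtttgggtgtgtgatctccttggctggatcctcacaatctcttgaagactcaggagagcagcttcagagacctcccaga
H2-Eb1: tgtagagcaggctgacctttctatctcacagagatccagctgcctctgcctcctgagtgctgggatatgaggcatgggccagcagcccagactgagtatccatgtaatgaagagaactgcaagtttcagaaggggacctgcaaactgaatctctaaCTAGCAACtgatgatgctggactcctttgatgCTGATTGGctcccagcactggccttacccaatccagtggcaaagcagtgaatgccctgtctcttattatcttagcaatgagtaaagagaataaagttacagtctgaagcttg
Capitals mark, on either strand, the NF-Y core of the Y box (CTGATTGG), a core of the X1 box (CTNGCAAC), the core of the X2 box (TGACG), the kappa B letters of enhancer A (GGGATTCCC) and the core bound by interferon regulatory factors (AANNGAAA). Marked runs can touch or overlap, as where the X2 core stands on both strands in H2-Aa. These letters were chosen after the windows were read.

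The Y box letters stood in all 4 windows and in that of Tap1 but not in that of B2m. They stood in 4.1% of 32851 windows of the same length over all genes. Since the letters were chosen with the member windows in view, such shares are a description and not a test. H2-Aa held the X1 core 84 bases, the X2 core 74 bases and the Y core 51 bases upstream of its start. H2-Eb1 held the X1 core 94 and the Y core 62 bases upstream, with no TGACG in the window. The X1 letters also stood in H2-D1, on the reverse strand 212 bases upstream, farther from the start than its kappa B letters at 170 bases. TGACG also stood in H2-K1, H2-D1, B2m and Tap1, so neither core was confined to the class II windows. The X1 core was in 3.42% and the X2 core in 20.8% of all windows. GGGATTCCC was in H2-K1 and H2-D1, in none of the other member windows read and in 116 windows in all (0.353%). The longest run of bases shared by H2-K1 and H2-D1 had 47 bases and held that element, whereas H2-Aa and H2-Eb1 shared at most 8. The IRF core was in H2-K1, H2-D1, H2-Aa and B2m and in 23.9% of all windows. These matches are letters only, and no binding was measured.

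The arrays had median intensities of 126.1 to 149.1, and 15307 to 15792 probes per array were detected, that is, had a detection p under 0.05. Probes detected on at least 3 arrays were tested, 15448 in all, which stood for 8808 genes. Arrays of the same group correlated at 0.977 to 0.986 and arrays of different groups at 0.978 to 0.984. The Flvcr1 probe read 11.01, 11.28 and 10.93 on the control arrays and 9.92, 10.45 and 10.13 on the Flvcr-deleted arrays (normalized log2 values). This is a log2 fold change of -0.91 (SE 0.157, limma adjusted p = 0.0317), and whether the probe reads the deleted part is not known here. The adjusted p was 0.115 to 0.296 without control replicate 1 or 2 or Flvcr-deleted replicate 1 or 3, and 0.380 without a trend in the variance. Of 10 double-positive markers with a probe, 9 were tested. Among them Cd8b1, the CD8 beta chain gene, had group means of 14.88 (control) and 14.83 (Flvcr-deleted), and the recombinase gene Rag1 of 13.80 and 13.67. Both probes of Cd8a, the CD8 alpha chain gene, were detected on 0 arrays of these sorted cells.

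Of the 19 antigen presentation probes, 15 probes for 9 genes were tested. The 4 probes left out were 1 each of H2-D1, B2m and Cd74, detected on 0 arrays, and the only H2-Aa probe, detected on 2. The deposited intensities included bright and dim probes. Probes of B2m, Tap2, H2-D1 and Cd1d1 had signals far above the lowest detected intensity of each array, which was 141.4 to 167.8. Those of Cd74, H2-Aa and H2-Eb1 lay close to it, at up to 276.1, 184.6 and 189.7. The dimmer H2-K1 probe and the dimmest H2-Ab1 probe, at up to 249.2 and 275.6, were also dim. A probe's brightness depends on its sequence, so these intensities do not rank the genes.

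**Figure D1:**
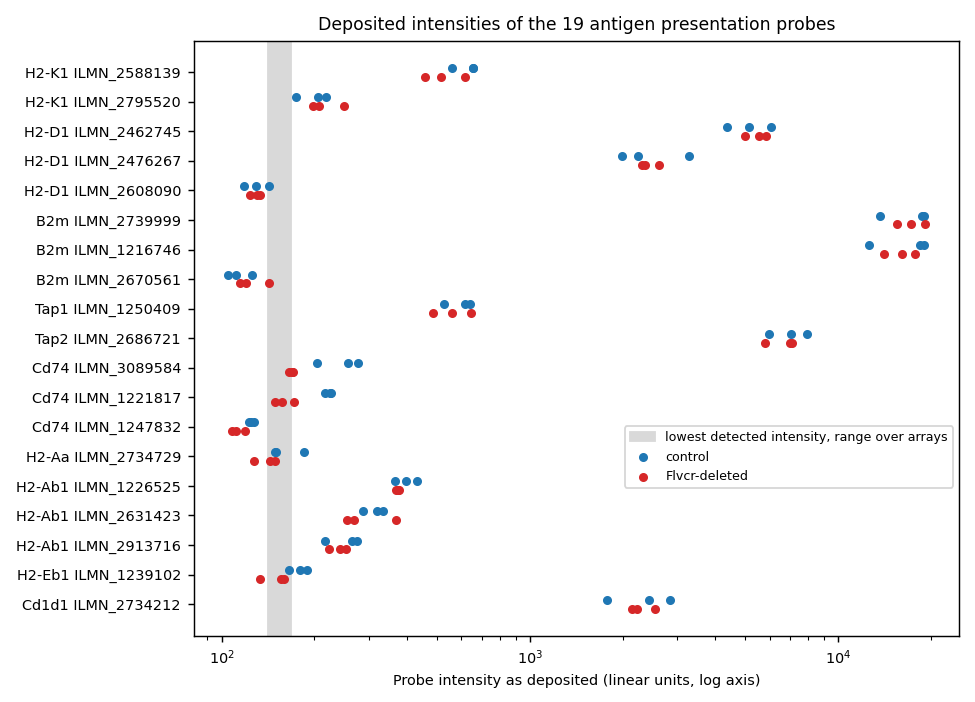
Deposited intensity (linear units on a log axis) of each of the 19 probes on the 3 control arrays (blue) and the 3 Flvcr-deleted arrays (red); the grey band is the range over arrays of the lowest detected intensity, 141.4 to 167.8. The H2-Aa and H2-Eb1 probes lie in or beside the band. Those of Cd74 reach 276.1, and the dimmest of H2-K1 and H2-Ab1 reach 249.2 and 275.6. The 2 bright B2m probes lie far above the band.

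The largest differences among the members were those of Cd74 and H2-Eb1, which belong to the class II pathway, while the intervals of the other tested members included 0, and no member passed the test. By limma, 0 of 9 tested genes had an adjusted p under 0.05, where 0.148% of all 8808 genes did. At an unadjusted p under 0.05 there were 2, Cd74 and H2-Eb1, both lower in Flvcr-deleted cells, where 4.63% of all genes passed. Groups did not overlap for 1 of the 9, Cd74, which was lower on every Flvcr-deleted array, where 4.36% of all genes had groups that did not overlap in that direction. The log2 fold changes (Flvcr-deleted minus control) had a median of -0.66 over the 3 tested class II genes and of -0.05 over the 5 class I genes, beside 0.01 over all genes tested. H2-Aa, the other class II gene, was not tested, and the class II median was -0.23 without background correction. Of the class II genes 3 of 3 read lower, and of the class I genes 3 of 5, where 4244 of 8808 genes did. The mean deviation of the 3 class II genes from their control means was 0.07, -0.46 and 0.39 on control replicates 1 to 3, against -0.77, -0.40 and -0.72 on the Flvcr-deleted replicates (log2), so control replicate 2 lay among the Flvcr-deleted arrays. For the 5 class I genes it stayed between -0.09 and 0.06 on the 6 arrays. The difference between the classes was not tested. These are bulk samples, so fewer cells of a type and less RNA per cell cannot be told apart.

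**Figure D2:**
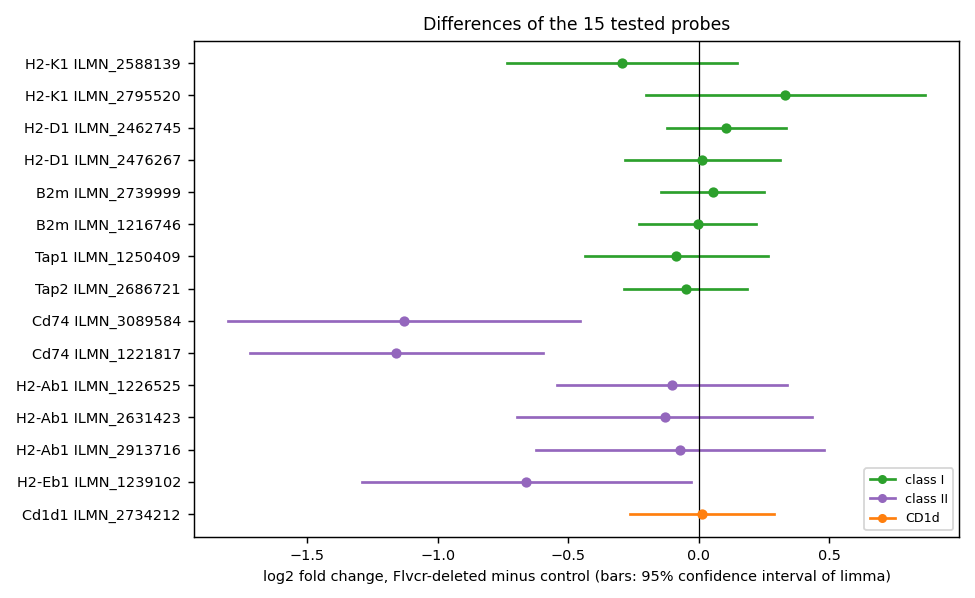
Log2 fold change (Flvcr-deleted minus control, x axis) of each of the 15 tested probes, as points with 95% confidence intervals of limma; class I in green, class II in purple, CD1d in orange. The Cd74 probes, at -1.13 and -1.16, and H2-Eb1, at -0.66, have intervals below 0, and none passed the adjusted test.

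Cd74 encodes the class II invariant chain, which guides class II molecules to endosomes. Its brightest probe (ILMN_3089584) read 7.07, 6.20 and 7.60 on control replicates 1 to 3, against 5.80, 6.07 and 5.63 on the Flvcr-deleted replicates (normalized log2 values). All Flvcr-deleted arrays lay below all control arrays, but control replicate 2 lay only 0.14 above Flvcr-deleted replicate 2. The means were 6.96 ± 0.70 (SD, n = 3) and 5.83 ± 0.22 (SD, n = 3), a log2 fold change of -1.13 (SE 0.315, 95% confidence interval -1.80 to -0.46), or 2.19-fold lower. Over all probes, limma gave an adjusted p of 0.559, so the difference did not pass. Among the 8808 genes, 16 had a lower log2 fold change.

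A second Cd74 probe (ILMN_1221817) gave a like difference with a wider gap. It read 6.58, 6.53 and 7.10 in control, against 5.28, 5.73 and 5.72 in Flvcr-deleted cells, so the groups were 0.80 apart at their nearest arrays. Its signal was detected in 3 controls and in 2 of the Flvcr-deleted samples. Its log2 fold change was -1.16 (SE 0.263, 95% confidence interval -1.72 to -0.60), with a limma adjusted p of 0.188. Only 0.272% of the tested probes had a smaller p. The third Cd74 probe (ILMN_1247832), with intensities of 107.8 to 127.4, was detected on 0 arrays and gives no level.

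The size of the Cd74 difference rested on how background was handled. Before background correction the brightest probe had intensities of 256.6, 204.1 and 276.1 in control, against 165.6, 170.4 and 168.7 in Flvcr-deleted cells. On the log2 values without background correction the difference was -0.51 (limma adjusted p = 0.658) and that of the second probe -0.46 (limma adjusted p = 0.261). Over 15 alternative settings the log2 fold change of the brightest probe ranged from -1.50 to -0.51 and its limma adjusted p from 0.0611 to 1.000, and it passed in none. Without control replicate 3, the highest array, it was -0.82, and without control replicate 2, the lowest control array, -1.50.

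H2-Eb1 encodes the beta chain of the class II molecule I-E. Its probe read 6.15, 5.69 and 6.10 on control replicates 1 to 3, against 4.86, 5.71 and 5.39 on the Flvcr-deleted replicates. The groups overlapped, since control replicate 2 lay just below Flvcr-deleted replicate 2. The log2 fold change was -0.66 (SE 0.296, 95% confidence interval -1.29 to -0.03), with a limma adjusted p of 1.000, and -0.23 without background correction. Its signal was detected in 3 controls and in 2 Flvcr-deleted samples, all near the lowest detected signal.

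H2-Aa encodes the alpha chain of I-A. Its intensities were 184.6, 150.6 and 149.3 in control, against 127.2, 143.9 and 149.6 in Flvcr-deleted cells. It was detected on control replicates 1 and 3 and on 0 Flvcr-deleted arrays, so it was not tested. With the Flvcr-deleted arrays raised to their lowest detected signal, its mean was 1.09-fold lower there after background correction. This is not a strict bound, since control replicate 2 was taken at its undetected value of 4.93 (log2), and the groups overlapped. Without a filter on dim probes its log2 fold change was -0.48 (SE 0.295), with a limma adjusted p of 0.990.

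**Figure D3:**
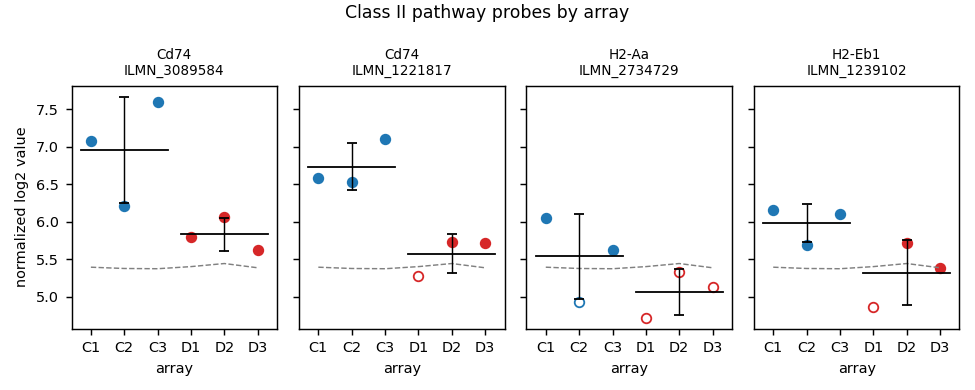
Normalized log2 values (y axis) of the Cd74, H2-Aa and H2-Eb1 probes on control arrays C1 to C3 (blue) and Flvcr-deleted arrays D1 to D3 (red); open circles are arrays on which the probe was not detected, the dashed line is the lowest detected signal, and bars are mean ± SD (n = 3). The groups are apart for both Cd74 probes and overlap for H2-Aa and H2-Eb1.

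H2-Ab1, the beta chain partner of H2-Aa, was detected on all 6 arrays by each of 3 probes, with groups that overlapped. The brightest probe (ILMN_1226525) read 8.06, 7.81 and 8.54 in control, against 8.10, 8.09 and 7.91 in Flvcr-deleted cells. The Flvcr-deleted arrays lay within the control range. Its log2 fold change was -0.10 (SE 0.207, 95% confidence interval -0.54 to 0.34, limma adjusted p = 1.000), and 0.10 without control replicate 3. The other probes stood at -0.13 (95% confidence interval -0.70 to 0.44) and -0.07 (-0.62 to 0.48). These intervals were wider than that of the brightest probe. The Cd74 probes stood below -1.1. The interval of the brightest probe allows H2-Ab1 to be up to 1.46-fold lower or 1.27-fold higher in Flvcr-deleted cells.

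B2m, H2-D1 and Tap2 had the smallest standard errors among the 9 tested members. B2m, the light chain shared by class I and CD1d molecules, read 14.09, 14.10 and 13.91 in control, against 13.98, 14.15 and 14.13 in Flvcr-deleted cells. The groups overlapped, with a log2 fold change of 0.05 (SE 0.092, 95% confidence interval -0.14 to 0.25, limma adjusted p = 1.000). A difference beyond 1.19-fold higher or 1.10-fold lower thus lay outside the interval. Its second bright probe stood at -0.00, and the 2 probes had a Pearson r of 0.943 over the 6 arrays, given as a description.

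H2-D1, a classical class I heavy chain gene, read 12.26, 12.38 and 12.23 in control, against 12.31, 12.49 and 12.38 in Flvcr-deleted cells. Its log2 fold change was 0.11 (SE 0.106, 95% confidence interval -0.12 to 0.33, limma adjusted p = 1.000). The second H2-D1 probe read 11.48 on control replicate 2 and 10.99 to 11.22 on the other 5 arrays, and had a log2 fold change of 0.01. Overlapping groups were thus seen with both probes.

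The probes of H2-K1, the other classical class I heavy chain gene, disagreed. The brighter one (ILMN_2588139) read 9.02, 8.64 and 9.29 in control, against 8.48, 9.05 and 8.53 in Flvcr-deleted cells, which gave a log2 fold change of -0.29 (SE 0.206, 95% confidence interval -0.74 to 0.15). The dimmer one (ILMN_2795520) read 6.41, 6.42 and 6.30 in control, against 7.16, 6.59 and 6.39 in Flvcr-deleted cells, which gave a log2 fold change of 0.33 (SE 0.250, 95% confidence interval -0.20 to 0.87). Groups overlapped with each, both limma adjusted p were 1.000, and the 2 probes had a Pearson r of -0.52 over the 6 arrays. The mean of both probes gave 0.019, so no direction can be given for H2-K1. The H2 class I heavy chain genes are close in sequence, and whether each probe reads 1 of them was not tested.

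Tap1 and Tap2 encode the subunits of the peptide transporter. Tap1 read 8.99, 8.81 and 8.90 in control, against 8.88, 8.62 and 8.94 in Flvcr-deleted cells, and Tap2 read 12.88, 12.61 and 12.71 against 12.82, 12.57 and 12.66. Groups overlapped for both. Their log2 fold changes were -0.09 (SE 0.165, 95% confidence interval -0.44 to 0.27) and -0.05 (SE 0.110, 95% confidence interval -0.28 to 0.18), with a limma adjusted p of 1.000 for each.

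Cd1d1, the CD1d gene of double-positive cells, differed by less than the spread between replicates. Its probe read 11.13, 11.26 and 10.89 in control, against 11.12, 11.07 and 11.14 in Flvcr-deleted cells. The 3 Flvcr-deleted arrays lay inside the control range, with a mean of 11.09 ± 0.19 (SD, n = 3) in the controls against 11.11 ± 0.03 (SD, n = 3) without Flvcr. The log2 fold change was 0.01 (SE 0.129, limma adjusted p = 1.000), and the 95% confidence interval of -0.26 to 0.29 spans 1.20-fold lower to 1.22-fold higher.

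**Figure D4:**
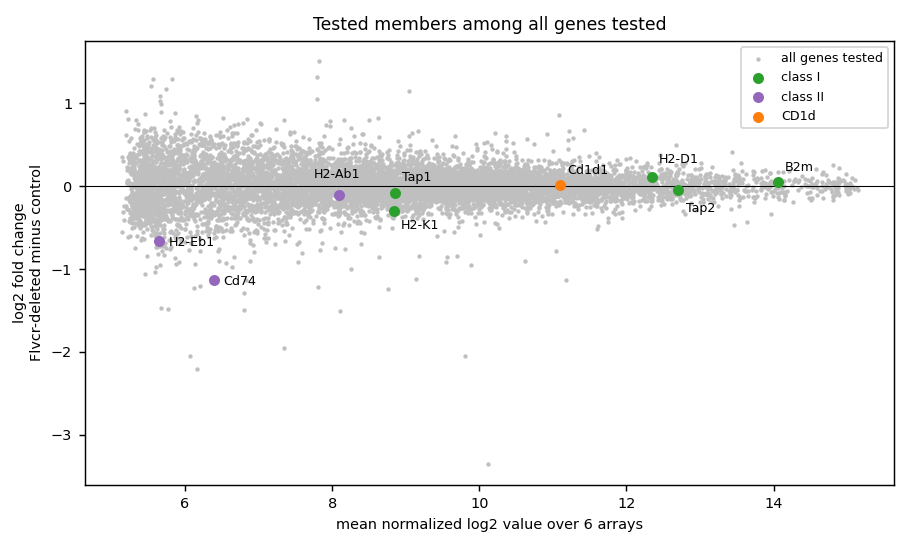
Log2 fold change (Flvcr-deleted minus control, y axis) against the mean normalized log2 value over the 6 arrays (x axis) for the 8808 genes tested (grey) and the 9 tested members (class I green, class II purple, CD1d orange). Cd74 and H2-Eb1 lie low among dim genes, and the class I genes and Cd1d1 lie between -0.29 and 0.11.

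The rest of the antigen presentation pathway did not pass either, with 0 genes past an adjusted p of 0.05 in each of the 6 lists that follow. Of 14 genes that supply and load class I peptides, 11 were tested, 7 read higher and 4 lower, and the median log2 fold change was 0.08. Psmb10, an immunoproteasome subunit gene, read 11.47, 11.39 and 11.49 in control, against 11.82, 11.70 and 11.88 in Flvcr-deleted cells. The groups did not overlap, with a log2 fold change of 0.35 (SE 0.113, limma adjusted p = 0.865). Psme2, a subunit gene of the proteasome activator PA28, stood at 0.29 (limma adjusted p = 1.000), and the abundant Psmb8 and Psme1 at 0.07 and 0.08.

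Of 15 other class I and class I-like heavy chain genes with a probe, 10 were tested, 5 read higher and 5 lower, with a median of 0.02. H2-Q2, a class Ib gene of the Q region, read 8.77, 9.09 and 9.39 in control, against 9.78, 9.47 and 9.66 in Flvcr-deleted cells. Its groups did not overlap, with a log2 fold change of 0.55 (SE 0.178, limma adjusted p = 0.865). Mr1, which presents vitamin B metabolites, stood at 0.27, H2-K2 at -0.07 and H2-T23, the Qa-1 gene, at -0.04.

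Further genes of the class II pathway were split around 0. Of the 14 with a probe only 6 were tested, of which 3 read higher and 3 lower (median 0.11). H2-DMa and H2-Oa, chains of the peptide editors DM and DO, stood at -0.04 (SE 0.165) and -0.06 (SE 0.178). H2-Ob stood at 0.37 (SE 0.322) and Ctsl, a protease that degrades the invariant chain, at 0.51 (SE 0.305). Without background correction these were 0.12 and 0.17. H2-Ob was detected in 2 control and 3 Flvcr-deleted samples, and Ctsl in 1 control and 2 Flvcr-deleted samples. Ctss, Lgmn and H2-Ea, each detected on 0 arrays, were among the 8 not tested.

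Of 15 regulators of MHC transcription with a probe 12 were tested, 8 higher and 4 lower, with a median of 0.06. Ciita, the master coactivator of class II genes, was detected on 0 arrays with both of its probes, as was Rfx5, a subunit gene of the RFX complex. Nfya, a subunit gene of the Y box factor NF-Y, read 6.63, 6.74 and 6.51 in control, against 7.30, 7.25 and 7.38 in Flvcr-deleted cells. Its groups did not overlap (log2 fold change 0.68, SE 0.207, limma adjusted p = 0.732). Irf8 stood at 0.79 (SE 0.323) with overlapping groups, and at 0.29 without background correction. Its signal was detected in 1 control and in 3 Flvcr-deleted samples. Nfyc, another NF-Y subunit gene, stood at 0.18 and the NF-kappa B gene Rela at -0.05 (limma adjusted p = 1.000 for Irf8 and for each of these).

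Genes that act with CD1d had medians near 0. Of 9 lipid loading and trafficking genes with a probe 7 were tested, 4 higher and 3 lower, with a median of 0.01. Ap3m1, a subunit gene of the AP-3 adaptor, stood at -0.48 (SE 0.231, limma adjusted p = 1.000) with groups that did not overlap, Gm2a at 0.23, Npc1 at -0.08 and Psap, the saposin precursor gene, at 0.01. Of 7 genes of the SLAM family and its partners 6 were tested, 2 higher and 4 lower, with a median of -0.07. Slamf1 stood at -0.22, Cd84 at -0.20 and Ly9 at 0.10. Over the 6 lists, 8 of 52 tested genes (15.4%) had groups that did not overlap, where 9.59% of all genes did. Of these, Psmb10, Psme2, H2-Q2, Nfya and Nfyc were higher in Flvcr-deleted cells, 5 of 52 (9.62%) where 5.23% of all genes were, and Ap3m1, Cd84 and Creb1 (log2 fold change -0.28) were lower.

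Markers of other cells that make class II were read beside Cd74, and their part in its difference was not tested. Of 15 dendritic cell markers 5 were tested, and 5 of 5 read lower, at a median of -0.13 (log2). Their mean log2 level was 8.001 to 8.22 in control and 7.73 to 7.99 in Flvcr-deleted cells, nearest arrays being 0.0093 apart. Without Ccr7 the other 4 had mean levels of 8.38 to 8.70 and 8.23 to 8.70, so the groups overlapped, and 0 of the 5 markers had groups that did not overlap. Itgax, Flt3 and Zbtb46 were among 8 of the 15 for which every probe was detected on 0 arrays. Ccr7, also counted as a mature thymocyte gene, stood at -0.76 (SE 0.289), Bst2 at -0.24 and Cst3 at -0.07. The Ccr7 signal was detected in 3 control and in 1 Flvcr-deleted sample. Its log2 fold change ranged from -0.97 to -0.27 over 14 alternative settings.

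Of 14 B cell markers with a probe only 4 were tested, and of these 2 read higher and 2 lower, at a median of 0.08 (log2). Their mean log2 level was 10.20 to 10.51 in control and 9.49 to 9.66 in Flvcr-deleted cells. Without Igkc it was 9.75 to 9.95 and 9.96 to 10.03. Igkc, the kappa light chain constant region, was the 1 B cell marker that passed. It read 12.20, 11.62 and 11.57 in control, against 8.03, 8.77 and 8.51 in Flvcr-deleted cells (log2 fold change -3.36, limma adjusted p = 5.09e-07). Cd79b, Ighm and Pou2af1 stood at 0.26, -0.05 and 0.22, and whether their signals came from B cells was not tested. The B cell genes Pax5, Ms4a1 and Blk were detected on 0 arrays.

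Markers of mature thymocytes were read in the same way. Of 12 single-positive markers 8 were tested, of which 5 read lower and 3 higher. By limma 4 of the 8, all lower, had an unadjusted p under 0.05, where 4.63% of all genes did in either direction. Groups did not overlap for 3 of the 8, Itgb7, Nkg7 and Il7r, all lower, where 4.36% of all genes did so in that direction. Nkg7 and Il7r passed the detection filter through their control arrays alone, so their place in this count is partly set by the filter. The median of the 8 tested markers was -0.40 (log2), or -0.32 with Nkg7 and Il7r at their bounds. Their mean log2 level was 7.67 to 7.97 in control and 7.27 to 7.49 in Flvcr-deleted cells, with Nkg7 and Il7r, each detected in 3 control and in 0 Flvcr-deleted samples, at their undetected values. Without these 2 genes the levels were 8.31 to 8.55 and 7.99 to 8.30, nearest arrays being 0.017 apart. Of the 6 genes left, 3 had an unadjusted p under 0.05 (limma) and 1, Itgb7, had groups that did not overlap. Ccr7, among these 3, was itself detected in 3 control and in only 1 Flvcr-deleted sample. Nkg7, a cytotoxic granule gene, was at least 1.49-fold lower after background correction, while its log2 fold change without background correction was -0.39. Ifngr1 and Foxp3 stood at 0.10 and 0.11, and none passed an adjusted p of 0.05.

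Over the 6 arrays, the genes most like Cd74 among 8799 other genes were Zranb1 (Pearson r = 0.980), Metap1d (0.972), Mrpl51 (0.969), Zcchc4 (0.968) and Rbmx (0.965). For the brighter H2-K1 probe they were Ruvbl2 (0.983), Iglv1, an immunoglobulin lambda segment (0.981), Ndufb2 (0.980), Tuba1a (0.978) and Gmeb1 (0.973). For Cd1d1 they were Nckap1l (0.997), Sp100 (0.989), Edaradd (0.987), Osr1 (0.985) and Atp6ap2 (0.983). With 6 arrays and so many genes, values of this size are a description of these arrays only.

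**Figure D5:**
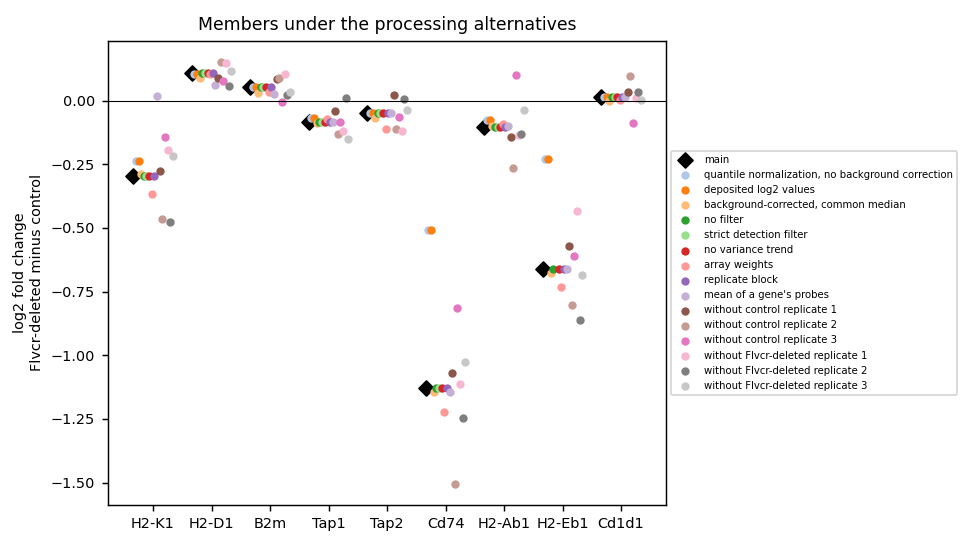
Log2 fold change (Flvcr-deleted minus control, y axis) of the 9 tested members under the main setting (black diamonds) and up to 15 alternatives (coloured points, named in the key). Cd74 and H2-Eb1 lie below 0 under each alternative that gave a value and shrink without background correction, while the other members stay within 0.5 of 0.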

How the data were processed

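Groups and replicate numbers came from the sample titles. The deposited non-normalized table held probe intensities on a linear scale and a detection p-value per probe and array, per the file headers. The deposited log2 values, for which the submitters' processing notes name lumi, differed by at most 0.00776 from quantile-normalized intensities after log2 and were an alternative. Probes were named from the platform annotation (35784 of 45281 had 1 gene symbol, 9497 none), updated through the RefSeq table of GRCm38.p6. Build, chip and scan date are not given in the sources used here.

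The neqc function of limma 3.58.1 (R 4.3.3) corrected the background, normalized by quantiles and took log2 (offset 16, negative controls inferred from detection p-values). The offset understates changes of dim probes. Probes detected (p under 0.05) on at least 3 arrays were tested 2-sided with lmFit and eBayes, with the prior variance as a trend on intensity, and p-values were adjusted by Benjamini-Hochberg over all 15448. A gene was its brightest tested probe. Named were all members, Flvcr1 and, per list, genes past 0.05, or the 2 with the smallest p, and the 2 brightest, plus the 5 most correlated genes; others were chosen after their values were seen. The members and lists were chosen with earlier results of these data known. For a bound, arrays of the group without detection were raised to their lowest detected signal where the probe lay below it, and the group means were compared. The procedure was tested on simulated arrays. The number of arrays limits the precision.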

Additional observations from a re-analysis of the deposited data

How the results depend on the processing

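No member passed an adjusted p of 0.05 under any of the 15 alternatives, and Cd74, H2-Eb1 and H2-D1 kept their direction in each that gave a value. H2-Eb1 was not tested with the strict detection filter. The class II median moved from -0.66 to -0.23 with quantile normalization alone and to -0.23 with the deposited log2 values, in both of which signals keep their background. With 1 array left out, class II medians were -0.86 to -0.43 and class I medians -0.12 to 0.020, the highest without control replicate 1. Leaving out 1 array also turned the direction of 5 genes, with ranges of -0.0064 to 0.10 for B2m, -0.089 to 0.098 for Cd1d1, -0.26 to 0.10 for H2-Ab1, -0.15 to 0.010 for Tap1 and -0.12 to 0.020 for Tap2. B2m, Cd1d1 and H2-Ab1 turned without control replicate 3, Tap1 and Tap2 (0.0065) without the Flvcr-deleted replicate 2, and Tap2 also without control replicate 1. Cd1d1 stood at -0.0011 with a common median and H2-K1 at 0.019 with the mean of its probes. Among other genes named, with 1 array left out, the ranges that crossed 0 were -0.11 to 0.036 for H2-T23, -0.17 to 0.12 for H2-DMa, -0.25 to 0.10 for H2-Oa, -0.13 to 0.087 for Rela, -0.061 to 0.080 for Psap, -0.049 to 0.33 for Ly9, -0.13 to 0.029 for Cd8b1, -0.035 to 0.35 for Apoe, -0.10 to 0.14 for Slc11a1, -0.91 to 1.40 for Hbb-b1 and -0.82 to 1.49 for Hba-a1. Array weights turned H2-T23 (0.040), H2-DMa (0.019), Slc11a1 (-0.064) and Hba-a1 (-0.099), the mean of probes turned H2-T23 (0.038), Npc1 (0.024) and Cd8b1 (0.062), a common median turned Psap (-0.0066), and values without background correction turned Hbb-b1 (0.014, and 0.013 in the deposited table). Where not given by construction, the cause was not tested. The count of genes past the threshold, 13, was 30 when arrays were weighted and 1 when the variance had no trend. With 1 array left out it was 2 to 12. The lowest count, 2, came when either control replicate 2 or Flvcr-deleted replicate 2 was left out, while leaving out Flvcr-deleted replicate 3 gave 3 and control replicate 1 gave 4. Same-numbered arrays correlated in their deviations at -0.15, 0.09 and 0.11, so the numbers were not taken as pairs. A fit with the replicate number as a block gave 12 genes and 0 members, with Cd74 at -1.13 (limma adjusted p = 0.599). No block for chips was fitted, since none is named. Signals near background limit what can be said of Cd74, H2-Eb1 and H2-Aa. Igkc passed under all 15 alternatives. In a choice made after seeing the data, the lowest control minus the highest Flvcr-deleted mean level was -0.32 for dendritic cell markers without Ccr7 (0.0093 with it) and -0.28 for B cell markers without Igkc (0.54 with it).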

Other observations

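Other marker lists held few tested genes. Of 13 thymic epithelium markers 2 were tested, Cldn4 at a log2 fold change of 0.51 (SE 0.176, limma adjusted p = 0.983) and the chemokine gene Ccl25 at 0.52 (SE 0.257). Foxn1, Epcam and Krt5 were detected on 0 arrays, and whether the Cldn4 and Ccl25 signals came from epithelium was not tested. Of 12 macrophage markers 3 were tested, Lyz2 at 0.05, Apoe at 0.17 and Slc11a1 at 0.03. The globin gene Hbb-b1 read 12.07, 10.45 and 10.46 in control, against 7.86, 12.32 and 12.47 in Flvcr-deleted cells, with an SD of 0.93 and 2.62 (n = 3 each). Hba-a1 stood at a log2 fold change of 0.03.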
